A study of Mus musculus with 6 samples.

Results

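The genes described here are 37 enzymes that make, recover or interconvert nucleotides, measured in mouse primary cultured OPCs (mOPCs) with and without Qk knockdown (KD). They were taken by name, as the rows whose gene symbol is 1 of the 37 listed members, out of the 23038 genes in each library. mOPCs are the glial precursors of the myelinating oligodendrocytes (OLs), here primary cells isolated by immunopanning from mouse embryos of mid-gestation. The control group, siNC, holds 3 libraries from cells that received control siRNA, and the siQk group holds 3 libraries from cells that received siRNA against Qk, the gene of the RNA-binding protein Qki. Cells were collected 72 h after transfection. The study used 3 different siRNAs against Qk, and which library received which was not given in the sources used here, so that the spread within siQk can include differences between siRNAs.

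Purine nucleotides are built step by step on a ribose phosphate donor, PRPP, until inosine monophosphate (IMP) is reached, which then branches to AMP and GMP. Pyrimidines are built as a free ring that is joined to PRPP to give UMP, from which CTP and, through ribonucleotide reductase and thymidylate synthase, the deoxynucleotides for DNA are made. Salvage enzymes return free bases and nucleosides to these pools. Several enzymes of thymidylate supply are known to be made mainly in cells that are copying DNA, while others serve mitochondrial DNA and repair in resting cells.

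Levels are given in RPKM, the tags of a gene scaled to its exon length and to the library total, which allows genes of different length to be compared. Library totals lay between 58166490 and 141045937 tags. Fold changes are siQk over siNC, from edgeR's quasi-likelihood test on the rounded tag numbers of 12505 genes with an average logCPM over 0, and calls required P below 0.01 together with a false discovery rate (FDR) below 0.1 over all of those genes. These fold changes include a scaling factor per library (TMM), from 0.899 to 0.987 in siNC and from 1.04 to 1.07 in siQk. RPKM values carry no such factor, so a ratio of RPKM lies above the fitted fold change. Qk itself fell from 209, 206 and 163 RPKM in siNC to 51.3, 76.6 and 36.2 RPKM in siQk (log2 fold change -1.98, standard error 0.28, FDR 0.00311). All 8 OPC markers were detected, with Pdgfra, the PDGF receptor of OPCs, at a mean of 82 RPKM in siNC. OL markers were also present, and 5 of 6 were called lower (83.3%, against 17.2% of all tested genes). Their summed level was 4542, 4335 and 2358 RPKM in siNC and 1183, 957 and 1566 RPKM in siQk. Of the 8 OPC markers 3 were called higher (37.5%, against 13.8% of all tested genes). The marker Lhfpl3 was called lower (log2 fold change -1.07), a share of 12.5% against 17.2%. Markers often used for astrocytes reached 175 RPKM (S100b, not called), but Gja1 had a siNC mean of 0.0111 RPKM. Of 5 tested, 2 were called lower (40%, against 17.2% of all tested genes), Gfap (log2 fold change -2.95) and Slc1a3 (-1.38). Markers for neurons reached 166 RPKM (Tubb3, -0.57, not called), but Stmn2 had a siNC mean of 0.0325 RPKM. Of 5 tested, 2 were called higher (40%, against 13.8%). These were Snap25 (2.64) and Nefl (1.61), with siNC means of 0.751 and 1.88 RPKM. Microglial markers stayed at or below 0.125 RPKM and fibroblast and vascular markers at or below 0.148 RPKM. Levels are means over all cells of a culture, so a change in RNA per cell cannot be told apart from a change in the share of cells that hold it.

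Of the 37 genes, 34 passed the filter on low values and were tested, and 15 of these (44.1%) were called changed, against 31.0% of all tested genes. The members were chosen with earlier results of these data known, so such shares describe them and test no excess. Higher in siQk were 11 genes (32.4%, against 13.8% of all tested genes): Ppat, Adsl, Atic, Impdh1, Gmps, Adss, Ctps, Tyms, Dut, Tk1 and Tk2. Lower in siQk were 4 genes (11.8%, against 17.2% of all tested genes): Prps2, Pfas, Paics and Rrm2b. The log2 fold changes of the 34 genes ran from -0.49 to 1.10 with a median of 0.25, while the median over all tested genes was 0.01, and 25 of the 34 values were above 0 (73.5%, against 51.2% of all tested genes). With library size as the only scaling, the median of all tested genes moved to 0.16 and that of the 34 genes to 0.40, which keeps a gap of 0.24, and the calls became 18 higher and 1 lower, so that higher genes made up 94.7% of the calls in place of 73.3%, while over all tested genes that share moved to 68.6% from 44.6%. The gap in the share of calls depended on single libraries. Leaving out siQk replicate 1 left 9 calls in either direction (26.5%, against 19.8% of all tested genes), 6 of them higher. Leaving out siQk replicate 2 left 10 calls (29.4%, against 21.5%), 6 of them higher. Without siNC replicate 1 there were 10 calls (29.4%, against 25.4%), 2 of them lower. Without siNC replicate 2 there were also 10 calls (29.4%, against 28.6%), 2 of them lower. Without siNC replicate 3 there were 11 (32.4%, against 29.7%). In the fits without a siNC library the share called in either direction thus lay close to that of all tested genes. Without siQk replicate 3 there were 15 (44.1%, against 24%). With 1 library left out, higher genes made up 60% to 80% of the member calls, against 40.7% to 44.3% over all tested genes. The call was kept in all 15 alternative settings that use these cutoffs for 7 genes, namely Adsl, Atic, Impdh1, Ctps, Tyms, Dut and Rrm2b.

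**Figure D1:**
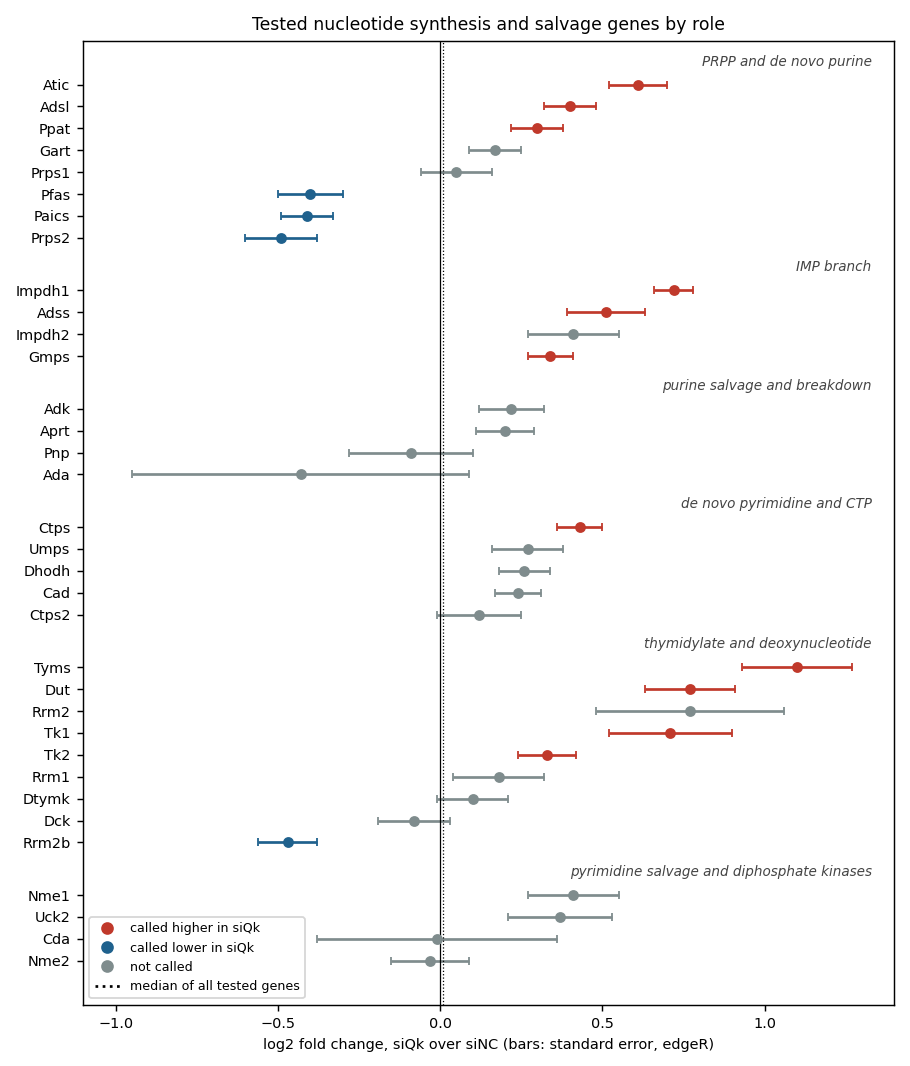
Log2 fold change (siQk over siNC, x axis) of the 34 tested nucleotide genes, grouped by role, with bars for the standard error from edgeR and colours for genes called higher, lower or not called. Values run from -0.49 (Prps2) to 1.10 (Tyms), and the dotted line marks the median of all tested genes, 0.01.

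The RPKM ranges of siNC and siQk did not overlap for 24 of the 34 genes, where 58.3% of all tested genes showed no overlap. After division by the TMM factor this held for 20 of the 34, against 54.4% of all tested genes. Within siQk, replicate 3 was the lowest library by RPKM for 26 of the 34 genes (76.5%), against 42.6% of all tested genes, and for 10 of the 11 genes called higher. Replicate 1 was the highest siQk library for 18 of the 34.

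The levels of the 37 genes spanned several orders of magnitude in siNC. Nme2 and Nme1, nucleoside diphosphate kinases that pass phosphate between nucleotides, stood at 181 ± 23 and 112 ± 17.9 RPKM (SD, n = 3), with Paics, an enzyme of purine synthesis, between them at 121 ± 3.18 RPKM. These 3 genes were the ones above 100 RPKM, 15 genes lay between 10 and 100 RPKM, 16 between 1 and 10 RPKM, and 3 below 1 RPKM. Nme2 stood clear of Paics, whereas Paics overlapped with Nme1, and Nme1 with Uck2 (97.9 ± 16 RPKM). Uck2 stood clear of Aprt, the next gene in the order. From Rrm1 (30.6 RPKM) down to Atic (11.1 RPKM) each gene overlapped with the next in the order. The lowest tested genes were Tk1 (1.94 RPKM), Tyms (1.92 RPKM) and Cda (1.49 RPKM).

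**Figure D2:**
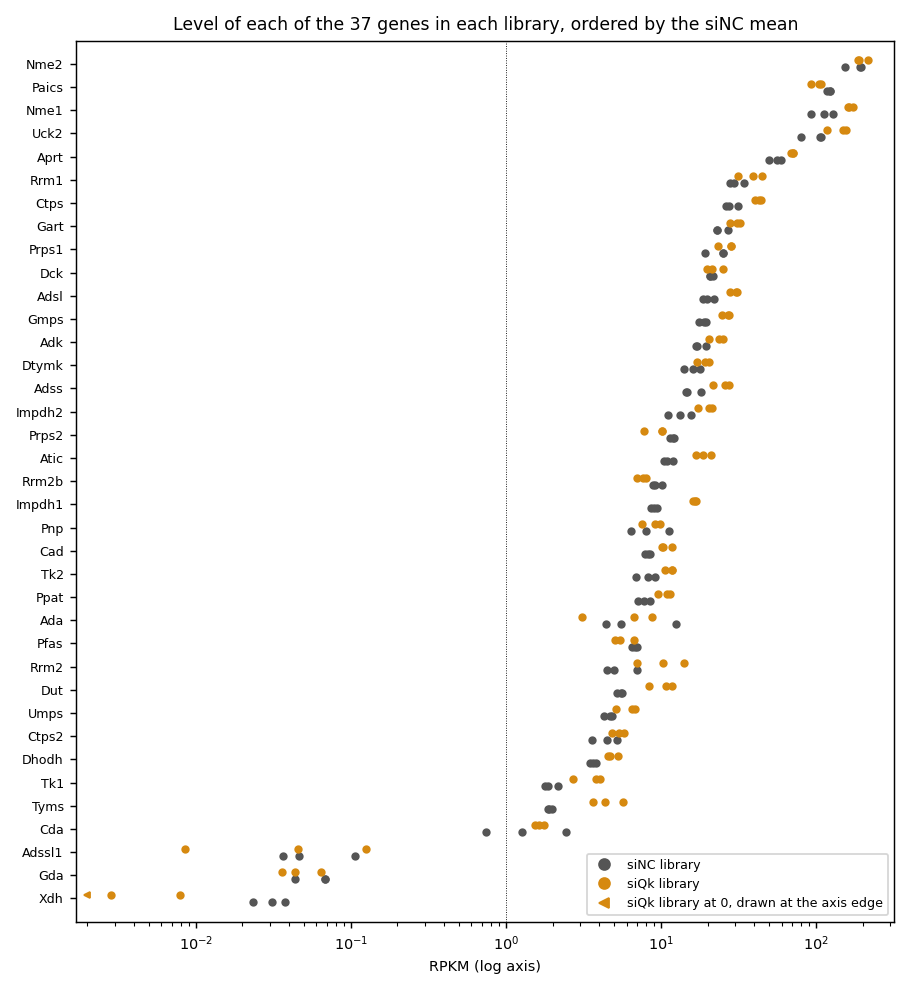
RPKM of each of the 37 genes in each library (log axis), ordered by the siNC mean, with siNC libraries in grey and siQk libraries in orange. Nme2, Paics and Nme1 stand above 100 RPKM in siNC, while Adssl1, Gda and Xdh lie below 1 RPKM, with Xdh at 0 in siQk replicate 2.

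The enzymes that lead from PRPP to IMP changed in both directions. Of the 8, 3 rose (Ppat, Adsl and Atic), 3 fell (Prps2, Pfas and Paics) and Prps1 and Gart were not called. The shares of 37.5% higher and 37.5% lower stood against 13.8% and 17.2% of all tested genes. The median log2 fold change of the 8 was 0.11. The genes that rose and those that fell act in the same linear pathway.

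Prps2, which makes PRPP, was at 11.5, 12.2 and 11.9 RPKM in siNC and at 10.2, 10.2 and 7.79 RPKM in siQk. The groups did not overlap and siQk replicate 3 was the lowest (log2 fold change -0.49, standard error 0.11, FDR 0.0151). The call was lost without siNC replicate 1 (-0.47) or siNC replicate 2 (-0.48) and with library size only (-0.34). Prps1, which encodes another PRPP synthetase, was at 19.2, 25.3 and 25 RPKM in siNC and at 28.3, 28.3 and 23.2 RPKM in siQk. Its groups overlapped (log2 fold change 0.05, FDR 0.73). The ratio of Prps1 to Prps2 within a library, which does not depend on library scaling, was 1.66, 2.07 and 2.11 in siNC and 2.77, 2.79 and 2.98 in siQk. All siQk ratios lay above all siNC ratios, by 0.56 on the log2 scale (two-sided exact permutation p = 0.1, which is the lower limit for groups of 3, and 0.175 after Benjamini-Hochberg adjustment over 7 pairs).

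Ppat encodes the amidotransferase that commits PRPP to purine synthesis. It was at 7.13, 7.72 and 8.49 RPKM in siNC and at 10.9, 11.5 and 9.52 RPKM in siQk (log2 fold change 0.30, standard error 0.08, FDR 0.0309). The groups did not overlap, but the call was lost in 7 of the 15 alternative settings, among them each fit without 1 library other than siQk replicate 3, where the log2 fold change lay between 0.25 and 0.34. Paics, which carries out a pair of later steps, was at 123, 117 and 123 RPKM in siNC and at 107, 105 and 92.1 RPKM in siQk. Every siQk library was below every siNC library (log2 fold change -0.41, standard error 0.08, FDR 0.00886), and the call was lost only with library size as the scaling (-0.26).

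Ppat and Paics are neighbours that are read in opposite directions on chromosome 5 of GRCm38.p6, with Ppat on the minus strand from 76913249 to 76951578 and Paics on the plus strand from 76951302 to 76967509. Their spans share 277 bases, and whether the counting used the strand was not stated, so reads in that stretch cannot be told apart. The ratio of Ppat to Paics was 0.0582, 0.0657 and 0.0689 in siNC and 0.102, 0.11 and 0.103 in siQk. The neighbours thus moved apart by 0.71 on the log2 scale, a 1.64-fold change of the ratio. This pair was picked after its values had been seen, and no test was made.

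Pfas, which adds an amide nitrogen in the middle of the pathway, was at 6.52, 6.77 and 7.04 RPKM in siNC and at 5.44, 6.66 and 5.02 RPKM in siQk. RPKM values overlapped because siQk replicate 2 lay within the siNC range, but not after TMM scaling (log2 fold change -0.40, standard error 0.10, FDR 0.0239). The call was lost in 8 of the 15 alternative settings, including the fits without siNC replicate 1, 2 or 3 (between -0.41 and -0.39), without siQk replicate 1 (-0.37) and without siQk replicate 3 (-0.32). Gart, which catalyses several steps, was at 23, 23.1 and 27.1 RPKM in siNC and at 31, 32.4 and 27.9 RPKM in siQk and was not called (log2 fold change 0.17, FDR 0.127).

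The last enzymes before IMP were both higher. Adsl, the adenylosuccinate lyase that acts here and again on the way to AMP, was at 19.7, 18.8 and 22 RPKM in siNC and at 30.7, 30.5 and 27.8 RPKM in siQk (log2 fold change 0.40, standard error 0.08, FDR 0.00798). Atic, which closes the purine ring, was at 10.9, 10.4 and 12 RPKM in siNC and at 18.7, 20.9 and 16.9 RPKM in siQk (log2 fold change 0.61, standard error 0.09, FDR 0.00377). For both genes the groups were well apart, with siQk replicate 3 the lowest of the siQk libraries.

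The 4 genes that fell in siQk shared a feature that the choice of members did not use. Qki proteins are known to bind RNA at the hexamers ACUAAC and ACUAAU, and the longest annotated 3'UTR of each of the 4 genes held at least 1 of them on the transcript strand (GENCODE M21, GRCm38). The sites are shown because they are the letters counted below. Capitals mark the hexamer, T stands for U, and each window is read 5′ to 3′ along the transcript.
Paics, chr5:76966907-76966932, plus strand: caatttagttACTAATgaacaaatgt
Paics, chr5:76966963-76966988, plus strand: agtggatattACTAATatttctagct
Prps2, chrX:167347614-167347639, minus strand: gcactttaaaACTAATgcaggaagag
Prps2, chrX:167346752-167346777, minus strand: acatttgtgaACTAATtagactggac
Pfas, chr11:68986348-68986373, minus strand: ccaagaaggtACTAATggtgaatagg
Rrm2b, chr15:37924088-37924113, minus strand: taactaaattACTAATtatttaaaca
All 6 windows carry the ACTAAT form. The pair in Paics starts 103 and 159 bases after the stop codon, in a 3'UTR of 695 bases.

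Among the 11 genes that rose, 4 held the hexamer, namely Ppat, Gmps, Tyms and Tk1, with these windows for Ppat and Tyms.
Ppat, chr5:76914028-76914053, minus strand: gagatgatttACTAACtcctgtttgt
Ppat, chr5:76913341-76913366, minus strand: aacatcccaaACTAATataaacctac
Tyms, chr5:30059205-30059230, minus strand: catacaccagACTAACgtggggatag
Tyms, chr5:30059013-30059038, minus strand: acaacgatttACTAATagaatagtgc
Of the 19 tested genes that were not called, 3 held it. Per kilobase of 3'UTR there were 0.679 hexamers in the 4 lower genes, 0.418 in the 11 higher genes and 0.148 in the genes not called. The median 3'UTR lengths were 2425, 1283 and 733 bases. Among the 4 lower genes, the value per kilobase was 2.88 in Paics, 0.774 in Prps2, 0.441 in Pfas and 0.304 in Rrm2b. Over all tested genes with an annotated 3'UTR, 36.1% held the hexamer, at 0.345 per kilobase and a median length of 1287 bases. Of all genes called lower 52.9% held it, at 0.494 per kilobase and a median length of 1566 bases. Of all genes called higher 27.3% held it, at 0.245 per kilobase and a median length of 1145 bases. Per kilobase, the 11 higher members thus lay above all tested genes, whereas all genes called higher lay below them. A match of letters is a description and not a binding site, the lengths differ between the sets, and no test was made on these few genes. The longest annotated 3'UTR need not be that of the RNA measured here. For Gmps it holds 5845 bases, more than the exon length of 4567 bases used for its RPKM. The same held for Uck2 (3499 against 1337 bases) and Nme1 (2417 against 1235 bases). Both were not called and held no hexamer, so their bases lower the value per kilobase of the genes not called.

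**Figure D3:**
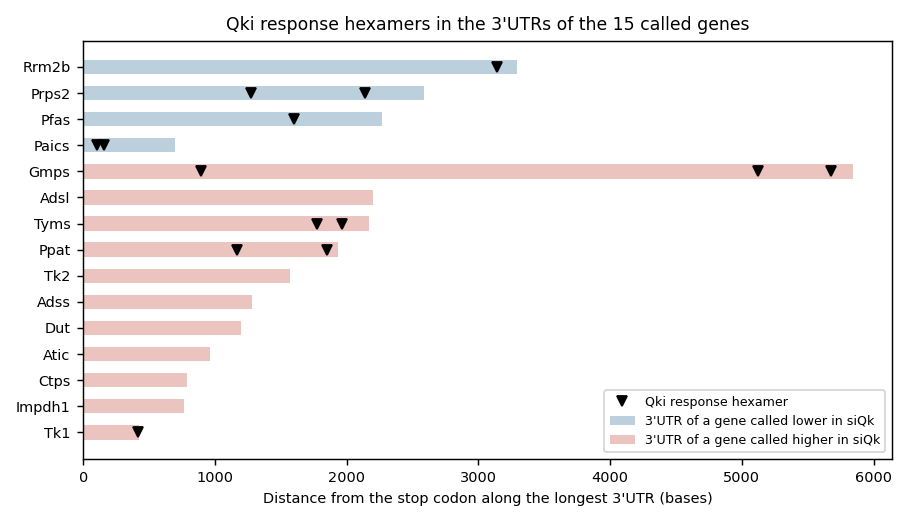
Longest annotated 3'UTR of the 15 called genes as bars (x axis, bases from the stop codon), blue for genes called lower and red for genes called higher in siQk, with triangles at each Qki response hexamer. All 4 lower genes and 4 of the 11 higher genes carry at least 1 triangle, and the Gmps 3'UTR of 5845 bases is the longest.

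The branch from IMP to GMP and AMP moved in 1 direction: 3 of the 4 tested genes rose (75%, against 13.8% of all tested genes). None fell, against 17.2% of all tested genes, and the median log2 fold change was 0.46. The summed level of the branch was 55.8, 56.4 and 58.7 RPKM in siNC and 89.8, 92.1 and 80.6 RPKM in siQk. Impdh1, an IMP dehydrogenase at the rate-limiting step of guanine nucleotide synthesis, was at 8.63, 9.4 and 9.03 RPKM in siNC and at 16.1, 16.6 and 16.7 RPKM in siQk. The libraries of each group lay close together and the groups far apart (log2 fold change 0.72, standard error 0.06, FDR 0.000895), and Impdh1 was the only 1 of the 11 higher genes with its highest value in siQk replicate 3.

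Impdh2, the gene of the second isozyme, was at 13.3, 11.1 and 15.7 RPKM in siNC and at 20.4, 21.3 and 17.4 RPKM in siQk. It did not pass the cutoff on P (log2 fold change 0.41, standard error 0.14, P 0.0208, FDR 0.0544 from edgeR), and DESeq2 called it higher. The ratio of Impdh2 to Impdh1 overlapped between groups (log2 difference -0.30, exact permutation p = 0.3, adjusted 0.35). Gmps, which turns XMP into GMP, was at 19, 17.7 and 19.5 RPKM in siNC and at 27.4, 26.9 and 24.8 RPKM in siQk (log2 fold change 0.34, standard error 0.07, FDR 0.0131). Its call was lost without siQk replicate 1 (0.31) or siQk replicate 2 (0.33).

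On the AMP side, Adss, the adenylosuccinate synthetase of most tissues, was at 14.7, 18.1 and 14.4 RPKM in siNC and at 25.7, 27.3 and 21.7 RPKM in siQk (log2 fold change 0.51, standard error 0.12, FDR 0.0168). The groups did not overlap. The call was lost without siNC replicate 1 (0.50), siNC replicate 3 (0.42), siQk replicate 1 (0.48) or siQk replicate 2 (0.45). Adssl1, its muscle counterpart, had 2 to 33 tags per library and was not tested.

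**Figure D4:**
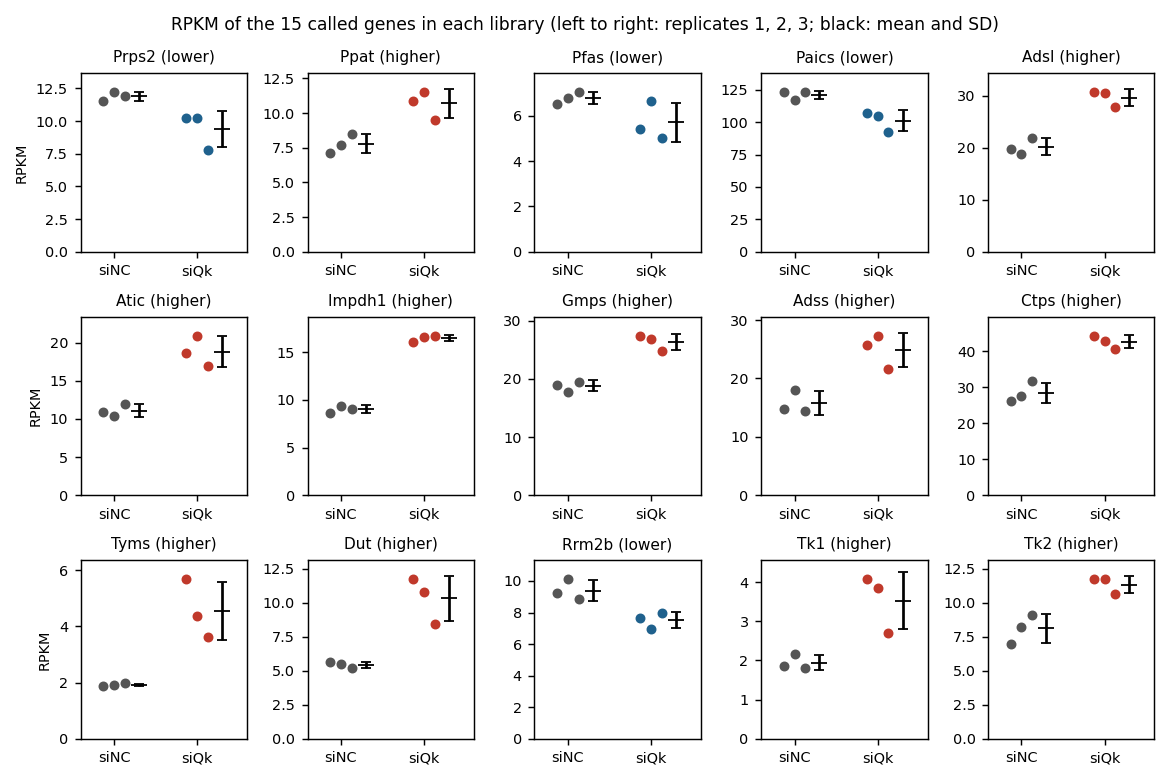
RPKM (y axis, from 0) of the 15 called genes in each library, with replicates 1, 2 and 3 from left to right in each group and the mean ± SD in black. Of these genes, only Pfas has a siQk library within the siNC range, and siQk replicate 3 is the lowest siQk library for 13 of the 15.

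Purine salvage and breakdown showed no called change among 4 tested genes, where 31.0% of all tested genes were called. None of the 4 had an unadjusted p under 0.05 in edgeR or a call in DESeq2. Aprt, which recovers adenine, was at 56.2, 49.6 and 59.6 RPKM in siNC and at 68.8, 70.9 and 71 RPKM in siQk. Its groups did not overlap, yet the log2 fold change of 0.20 did not pass (FDR 0.111), and it was called with library size only (0.35). Adk, which phosphorylates adenosine, was at 17.1, 16.7 and 19.5 RPKM in siNC and at 25.2, 23.5 and 20.3 RPKM in siQk (log2 fold change 0.22, FDR 0.115).

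Pnp, which splits inosine and guanosine, ranged from 6.42 to 11.3 RPKM in siNC and from 7.59 to 9.85 RPKM in siQk, so that the groups overlapped. Its log2 fold change of -0.09 changed sign with library size only (0.05). Pnp2, a near copy, was at 0.351 to 1.02 RPKM, and reads could have been split between the copies. Ada, which deaminates adenosine, had the largest standard error of the 34 tested genes, at 12.5, 5.52 and 4.4 RPKM in siNC and at 6.67, 3.08 and 8.81 RPKM in siQk. Its log2 fold change of -0.43 had a standard error of 0.52 and turned to 0.21 without siNC replicate 1. The breakdown enzymes Gda and Xdh were below the filter, Gda with 22 to 49 tags and Xdh with 9, 13 and 25 tags in siNC and 2, 0 and 5 tags in siQk. The difference in Xdh was called only when no filter was applied.

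Hprt, which recovers hypoxanthine and guanine, is not 1 of the 37 but completes purine salvage. It was at 8.67, 15.5 and 12.8 RPKM in siNC and at 84.1, 69.6 and 77.9 RPKM in siQk (log2 fold change 2.50, standard error 0.19, FDR 0.000595 from edgeR), the highest value among the nucleotide genes examined.

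In de novo pyrimidine synthesis all 5 genes had a log2 fold change above 0 under each scaling, but 1 was called (20%, against 31.0% of all tested genes). Ctps, a CTP synthase, was at 26.2, 27.4 and 31.6 RPKM in siNC and at 44.2, 42.9 and 40.5 RPKM in siQk (log2 fold change 0.43, standard error 0.07, FDR 0.00441). The groups did not overlap. Its paralog Ctps2 was at 3.61, 5.22 and 4.47 RPKM in siNC and at 5.33, 5.81 and 4.85 RPKM in siQk, with overlap (log2 fold change 0.12, FDR 0.491). The ratio of Ctps to Ctps2 was 7.26, 5.25 and 7.05 in siNC and 8.3, 7.39 and 8.36 in siQk, without overlap and 0.31 higher on the log2 scale (exact permutation p = 0.1, adjusted 0.175).

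Cad, which catalyses the opening steps of the pathway, was at 7.94, 8.23 and 8.44 RPKM in siNC and at 10.2, 11.8 and 10.3 RPKM in siQk. It narrowly missed the cutoff on P (log2 fold change 0.24, standard error 0.07, P 0.0111, FDR 0.0347 from edgeR). Dhodh, the mitochondrial dehydrogenase of the pathway, was at 3.49, 3.62 and 3.8 RPKM in siNC and at 4.7, 5.28 and 4.55 RPKM in siQk (log2 fold change 0.26, FDR 0.0457). DESeq2 called both Cad and Dhodh, so that it called 3 of the 5 genes, where it called 39.1% of all tested genes. Umps, which makes UMP, was at 4.27, 4.81 and 4.69 RPKM in siNC and at 6.77, 6.53 and 5.16 RPKM in siQk (log2 fold change 0.27, FDR 0.102), and it was called without siQk replicate 3 (0.38). None of the 4 uncalled genes had a log2 fold change above that of Ctps.

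The thymidylate and deoxynucleotide genes held the largest log2 fold changes among the 34 tested genes. Of 9 genes, 4 rose (44.4%, against 13.8% of all tested genes) and 1 fell (11.1%, against 17.2%). Their median log2 fold change was 0.33. Tyms, thymidylate synthase, was at 1.88, 1.91 and 1.97 RPKM in siNC and at 5.67, 4.36 and 3.63 RPKM in siQk. All siQk libraries were above the siNC libraries, with replicate 1 highest and replicate 3 lowest (log2 fold change 1.10, standard error 0.17, FDR 0.00408). Dut, which removes dUTP and supplies the substrate of Tyms, was at 5.64, 5.49 and 5.17 RPKM in siNC and at 11.7, 10.8 and 8.43 RPKM in siQk (log2 fold change 0.77, standard error 0.14, FDR 0.00737). The libraries of siQk stood in the same order as for Tyms.

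The cytosolic and the mitochondrial thymidine kinase both rose. Tk1, the cytosolic enzyme made in S phase, was at 1.86, 2.16 and 1.8 RPKM in siNC and at 4.07, 3.84 and 2.69 RPKM in siQk (log2 fold change 0.71, standard error 0.19, FDR 0.0273). Tk2, the mitochondrial enzyme, was at 6.94, 8.23 and 9.12 RPKM in siNC and at 11.7, 11.7 and 10.6 RPKM in siQk (log2 fold change 0.33, standard error 0.09, FDR 0.0291). Neither gene had overlapping groups, and their ratio did not separate the groups (log2 difference 0.36, exact permutation p = 0.3, adjusted 0.35). The Tk1 call was lost without siNC replicate 1, 2 or 3 (0.63 to 0.78), siQk replicate 1 (0.59) or siQk replicate 2 (0.66), and that of Tk2 without siNC replicate 1 (0.27) or 2 (0.33), or siQk replicate 1, 2 or 3 (0.31 to 0.37). Dtymk, which phosphorylates dTMP, was at 16, 14 and 17.8 RPKM in siNC and at 20.5, 19.3 and 17 RPKM in siQk and was not called (log2 fold change 0.10, FDR 0.512). Dck, deoxycytidine kinase, was at 21.7, 20.6 and 20.7 RPKM in siNC and at 25.3, 21.3 and 19.7 RPKM in siQk. Its log2 fold change of -0.08 (FDR 0.578) turned to 0.07 with library size only.

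Ribonucleotide reductase, which makes deoxynucleotides from ribonucleotides, pairs the large subunit Rrm1 with a small subunit, either Rrm2, made in S phase, or Rrm2b, which is induced by p53 and serves resting cells. Rrm2b fell, from 9.21, 10.1 and 8.86 RPKM in siNC to 7.64, 6.97 and 7.99 RPKM in siQk (log2 fold change -0.47, standard error 0.09, FDR 0.00997), without overlap. Rrm2 was at 7, 4.99 and 4.52 RPKM in siNC and at 14.1, 10.3 and 7.05 RPKM in siQk. Its lowest siQk library barely exceeded the highest siNC library, the groups overlapped after TMM scaling, and it was not called (log2 fold change 0.77, standard error 0.29, P 0.0344, FDR 0.0776 from edgeR). Rrm2 was called with library size only (0.93) and without siQk replicate 3 (0.99), and without siQk replicate 1 its log2 fold change was 0.49. The ratio of Rrm2 to Rrm2b was 0.759, 0.493 and 0.51 in siNC and 1.85, 1.47 and 0.882 in siQk. It separated the groups, with a log2 difference of 1.22 (exact permutation p = 0.1, the smallest possible, adjusted 0.175). In RPKM, Rrm2b was the higher of the 2 in all siNC libraries, and Rrm2 in siQk replicates 1 and 2. Rrm1 was at 29.6, 34.4 and 28 RPKM in siNC and at 44.9, 39.3 and 31.2 RPKM in siQk, with overlap (log2 fold change 0.18, FDR 0.37).

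**Figure D5:**
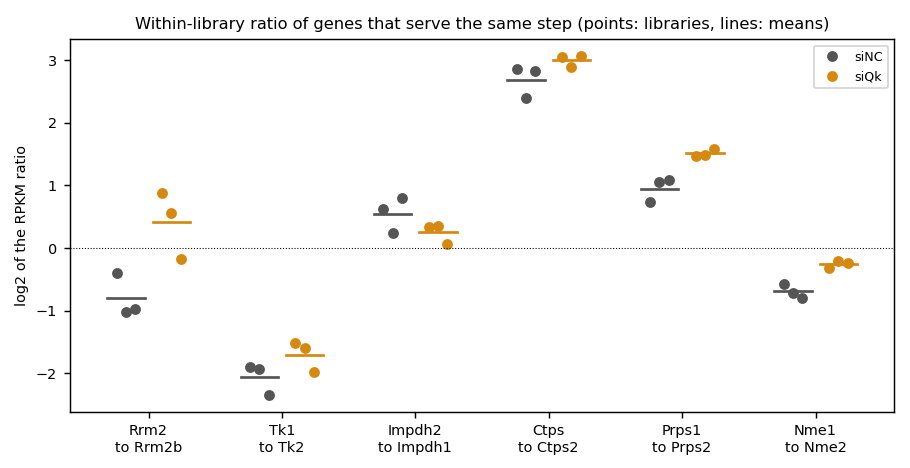
Log2 of the RPKM ratio (y axis) of 6 pairs of genes that serve the same step, for each siNC (grey) and siQk (orange) library, with lines for group means. The groups do not overlap for Rrm2 to Rrm2b, Ctps to Ctps2, Prps1 to Prps2 and Nme1 to Nme2, and overlap for the other pairs.

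Markers of dividing cells were also higher in siQk in their sum, though not each of them. The summed level of 9 such markers (Mki67, Top2a, Pcna and Mcm2 to Mcm7) was 122, 101 and 104 RPKM in siNC and 222, 179.6 and 144 RPKM in siQk. Of the 9, 5 were called higher (55.6%, against 13.8% of all tested genes), and the median log2 fold change was 0.83. Pcna (log2 fold change -0.06, FDR 0.757) and Mcm4 (0.06, FDR 0.758) were level, and Mcm2 (0.74) and Mcm3 (0.88) were not called. None of the 9 markers was at 0. Within siQk, replicate 1 was the highest and replicate 3 the lowest library for 9 of the 9 markers. For the 9 deoxynucleotide genes replicate 1 was the highest in 7 and replicate 3 the lowest in 8, where over all tested genes these shares were 26.5% and 42.6%. Within siNC the sets went apart, with replicate 1 the highest library for 8 of the 9 markers and for 3 of the 9 deoxynucleotide genes. The part of dividing cells in the changes of the nucleotide genes was not tested, and neither was that of the OL, astrocyte and neuron markers that changed in the same comparison.

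Pyrimidine salvage and the diphosphate kinases had no called gene among 4 tested, where 31.0% of all tested genes were called. They had 1 unadjusted p under 0.05 in edgeR's quasi-likelihood test and no call in DESeq2. Uck2, which phosphorylates uridine and cytidine, was at 106, 79.5 and 108 RPKM in siNC and at 149, 117 and 155 RPKM in siQk (log2 fold change 0.37, standard error 0.16, FDR 0.122), and it was called with library size only (0.52). Nme1 was at 129, 93.4 and 113 RPKM in siNC and at 173, 162 and 161 RPKM in siQk, without overlap (log2 fold change 0.41, standard error 0.14, P 0.0219, FDR 0.0563 from edgeR), and it was called by edgeR's exact and likelihood ratio tests (0.41 in both), with library size only (0.56) and without siNC replicate 1 (0.57). Nme2 lies 2668 bases from Nme1 on the same strand and was level, at 191, 154 and 196 RPKM in siNC and at 215, 187 and 189 RPKM in siQk. Its log2 fold change of -0.03 (standard error 0.12, FDR 0.88) turned to 0.13 with library size only. The ratio of Nme1 to Nme2 was 0.675, 0.606 and 0.577 in siNC and 0.804, 0.865 and 0.852 in siQk, without overlap (log2 difference 0.44, exact permutation p = 0.1, adjusted 0.175). The sequences of Nme1 and Nme2 are similar, and how the counting treated reads that fit both was not stated. Cda, cytidine deaminase, was low and variable, at 0.744, 1.28 and 2.43 RPKM in siNC and at 1.75, 1.64 and 1.55 RPKM in siQk (log2 fold change -0.01, standard error 0.37, FDR 0.987).

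In the wider pathway, 57 further genes of nucleotide salvage, interconversion, pool control and transport were present, and 49 were tested. Of these, 9 were called higher and 8 lower (34.7% called, against 31.0% of all tested genes), with a median log2 fold change of 0.02. The genes named here had an average logCPM over 3. Among the higher ones beside Hprt were Slc29a4, a transporter of monoamines and nucleosides (log2 fold change 1.13), Dctpp1, which clears dCTP and its analogs (0.89), and Mtap, which returns methylthioadenosine to adenine (0.86). Among the lower ones were Uckl1, a relative of uridine kinase (-0.75), Ampd3, an AMP deaminase (-0.66), Ak1, adenylate kinase (-0.63), and Slc29a3, a nucleoside transporter of lysosomes (-0.54). Below that level, the calls included Lacc1 (-1.76) and Upp1 (-0.87), both lower, and Dctd (1.01), which was higher. The call of Slc29a3 was lost in 5 of the 15 alternative settings, among them library size only (-0.38) and the fits without siQk replicate 1 (-0.55), 2 (-0.53) or 3 (-0.55). Dctpp1 was at 11.6, 10.8 and 13.4 RPKM in siNC and at 26, 28.1 and 19.8 RPKM in siQk, with replicate 3 again the lowest of siQk. Of the 6 tested genes of deoxynucleotide and pool control outside the 37, 3 were called higher (50%, against 13.8% of all tested genes). None was called lower, against 17.2% of all tested genes.

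Promoter sequences were available from RefSeq (GRCm38.p6, 250 bases before to 50 after the start) for 33 of the 37 genes. They were searched on both strands for letters that the E2F factors of the cell cycle are known to favour, namely TTCCCGC with its variant TTCGCGC as well as TTGCCGC with its variant TTGGCGC. At least 1 of these was found in 10 of the 33 (30.3%), against 17.9% of the promoters of tested genes. Only the first listed start of each gene was searched, so the result for a gene holds for that start alone. A match says only that the letters are there. Of the 11 higher genes 3 held one (27.3%), and so did 6 of the 18 tested genes that were not called (33.3%). Tyms, Dut and Tk1 held none in this window, while Ppat held 3, and Rrm1 and Rrm2 held 1 each. The letters CCAAT, which can share bases with the reverse complement of TTGGCGC, were searched in the same way and were found in 14 of the 33 promoters (42.4%) and in 39.4% of the promoters of tested genes. They were in 1 of the 11 higher genes (9.09%) and in 11 of the 18 tested genes that were not called (61.1%).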

How the data were processed

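Polyadenylated RNA of the 6 mOPC libraries was sequenced as paired-end reads, aligned to mm10 with OLego and quantified with Quantas by the authors, and their versions and gene annotation are not given in the sources used here. For each gene the authors deposited an estimated count (tag number, not normalized), the exon length and the RPKM, which recomputing showed to be tags over exon length and library total. The files give no coordinates. Positions are from RefSeq GRCm38.p6 and 3'UTRs from GENCODE M21.

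Tag numbers were rounded. Genes with an average logCPM over 0 were tested with edgeR 4.0.16 (limma 3.58.1, R 4.3.3), quasi-likelihood, TMM factors and the group as the only term, at the cutoffs of the study's methods. The step was tested on simulated data. Standard errors are on the log2 scale. Paralog ratios were compared with an exact two-sided permutation test. No 2 replicates differed by as little as sampling noise (chi-square per degree of freedom of 44.7 or more), and each was counted once. Rn45s, a ribosomal RNA gene, held 3.11% of the tags of siNC replicate 1 and at most 0.389% elsewhere. Other settings tried were the likelihood ratio and exact tests of edgeR, DESeq2 1.42.0, other scalings and filters, a replicate block, a stricter cutoff and each library left out.

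The named genes were the 37 members, Qk, Hprt and, of the further pathway genes called with an average logCPM over 3, the 4 highest and the 4 lowest. The members and lists were chosen with earlier results of these data known. The replicates are described as biological, and the p-values measure the spread between these cultures. Reads shared with a near-identical copy or an overlapping gene leave a value uncertain. Besides Ppat and Paics, such overlaps include Tk1 with Afmid (585 bases), Gmps with Slc33a1 (1101), Ctps2 with S100g (2608) and Cad with Atraid (14).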

Additional observations from a re-analysis of the deposited data

How the results depend on the processing

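Of 510 values of single members under the alternatives, 454 stayed on their side of the cutoff, 36 lost the call, 20 gained it and none of the called values reversed. The 56 paralog ratio values kept their direction. Called members numbered between 14 and 18 with the other tests, filters, RLE or upper quartile scaling. With library size only, 18 members were higher and 1 lower, 19 in all, with a median of 0.40, since the median of all genes rose to 0.16. Under a cutoff of 0.05 on the FDR that also asked for a log2 change of 1 or more in size, 1 member was called, 1 higher and 0 lower, with 4 further pathway genes and 946 of all genes, as the stricter cutoff makes fewer calls by construction. With 1 library left out, 9 to 15 members were called, 6 to 12 of them higher and 2 to 4 lower, with medians from 0.21 to 0.30. Over the same fits 10 to 17 further pathway genes and 2478 to 3704 of all genes were called, and the log2 fold change of Qk ran from -2.29 to -1.76. Apart from the changes shown by construction, the cause was not tested. Libraries with the same replicate number did not deviate together (correlations of -0.0528, -0.152 and -0.34), and with the replicate block 14 members, 9 further pathway genes and 2796 of all genes were called, with Ppat, Pfas and Tk2 losing the call and Rrm2 (0.75) and Uck2 (0.37) gaining it. With 3 libraries a group, small changes may be missed, and the exact test cannot go below 0.1.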
